A study of Homo sapiens with 6 samples.

Results

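The steady-state transcriptome described here is that of SEM, an established cell line of human B-lineage acute lymphoblastic leukaemia with a KMT2A::AFF1 gene fusion, as read from its negative-control (NC) libraries. These are 3 of the 6 libraries of the series, taken by their label alone: SEM cells given a commercial non-targeting Dicer-substrate RNA duplex with a lipid reagent, by a reverse transfection and a forward transfection 24 h later. The other 3 libraries, from cells given duplexes against the junction of AK_8_2, a circular RNA of the fusion gene, were not used. The control cells are therefore transfected cells of 1 line, and no untransfected library was analysed here. No difference between conditions was tested, and every value below is a description of these 3 libraries, with its standard deviation (SD) over them.

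The KMT2A protein is a histone methyltransferase that keeps developmental genes active, and its fusion to AFF1 joins its DNA-binding end to a scaffold of the transcription elongation machinery. Leukaemias with this fusion are known for HOXA and MEIS1 expression, for an early B-cell state that keeps some myeloid genes, and for lack of the surface peptidase CD10. A B-cell precursor passes through stages marked by PAX5 and EBF1, recombination of the immunoglobulin genes, and a pre-B-cell receptor built around the immunoglobulin mu chain.

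Counts assigned to genes totalled 14750579, 24186646 and 23453412 in NC replicates 1, 2 and 3, so that 1 CPM (1 count per 1000000, on scaled library sizes) stood for 15.7, 23.1 and 23.2 counts. Replicate 1 stood apart from the others. Of its records, 48.6% lay in no annotated feature, against 15.8% and 17.3%, and 52077 gene identifiers had at least 1 count, against 31680 and 30641. The same held for genes that a blood cell should not use. The 389 protein-coding olfactory receptor genes, which serve smell, had a median of 0.206 RPKM (CPM per kilobase of exon, the level per length) in replicate 1 and 0 in both others. The 95th percentile of these genes, 0.696, 0.0703 and 0.0464 RPKM in replicates 1, 2 and 3, was taken as the background limit of each library. A gene was called detected in a library at 10 or more counts and an RPKM above that limit. It was called on when detected in all 3 libraries with at least 1 CPM in each, silent when detected in none, and intermediate otherwise. A silent call is one at this depth and does not mean absence: in each library the gene had under 10 counts or an RPKM not above the limit. Of the 5917 silent protein-coding genes, 700 had 0 counts in all 3 libraries. For a count of 0 alone, the limit that it allows is 3 counts, or 0.191, 0.130 and 0.130 CPM.

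**Figure D1:**
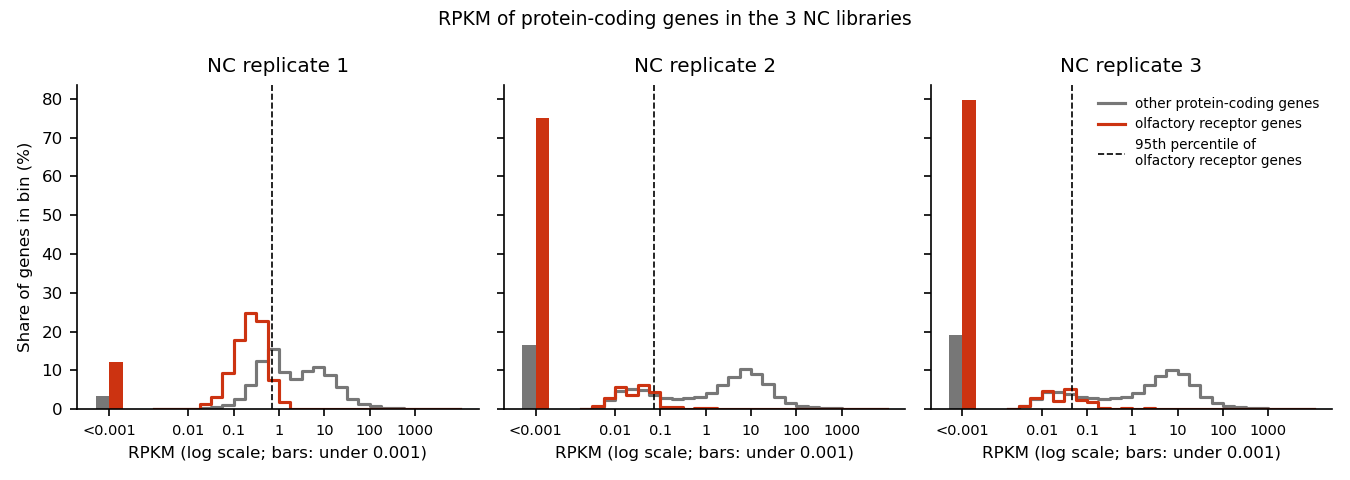
Share of genes (vertical axis, percent) in bins of RPKM (horizontal axis, log scale, with lower values and 0 gathered in the bar at the far left) in each NC library, for 389 olfactory receptor genes in red and other protein-coding genes in grey, with the 95th percentile of the olfactory receptor genes as a dashed line. The dashed line stands at 0.696 RPKM in replicate 1 and at 0.0703 and 0.0464 in replicates 2 and 3, and a broad hump of expressed genes lies to the right of it in all 3 libraries.

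SEM cells used more protein-coding genes than they kept silent. Of 19818 such genes 10675 (53.9%) were on and 5917 (29.9%) were silent. Of the 3226 intermediate genes, 1850 were detected in replicate 1 alone and 609 in replicates 2 and 3 but not in 1. Over the genes that were on, the median level was 7.07 RPKM, against 1.04 over all protein-coding genes. At least 100 CPM in every library was reached by 1871 genes and at least 1000 by 66. Few non-coding loci passed the same rule: 1067 of 14723 long non-coding genes were on (7.25%) and 8955 were silent (60.8%). Of 7040 short structured RNA genes 82 (1.16%) were on, and of 14914 pseudogenes 456 (3.06%). The minimum of 1 CPM asks a higher level per length of a short gene than of a long one. The shares of these kinds and of protein-coding genes are therefore not directly comparable. Without replicate 1, 11017 protein-coding genes were on and 7767 silent. In the deposited counts, reads that align to several places stand on a line of their own and not in genes, so a low count of a gene with a near-identical copy is no sign that it is silent. All 17 protein-coding genes of the pseudoautosomal region, which are listed a second time on the Y chromosome, had at most 8 counts in any library, among them CD99, CRLF2, IL3RA and CSF2RA.

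Among protein-coding genes of the nuclear genome, the translation factor EEF1A1 took the largest share of counts; mitochondrial messages are given further down and are not ranked here. EEF1A1 (ENSG00000156508.19, chromosome 6, 73515750 to 73523797, minus strand, GRCh38), the factor that brings aminoacyl-tRNA to the ribosome, had 6686, 8404 and 7303 CPM, a mean of 7464 ± 871 (SD, n = 3). Next came PTMA, the acidic nuclear protein prothymosin alpha, at 4302 ± 723 CPM, the elongation factor EEF2 at 3386 ± 652, and the actins ACTB at 3383 ± 544 and ACTG1 at 3043 ± 422. EEF2, ACTB and ACTG1 differed from each other by less than their SDs. Others among the 15 nuclear protein-coding genes with the highest CPM were PAN3, PABPC1, HNRNPA1, GAPDH, NCL, HSP90AA1, PKM, RPS4X and RPS2. Per length the order of the nuclear genes changed. Histone H2BC12 had the highest mean of them, with 1195, 2122 and 1858 RPKM, ahead of the linker histone H1-5 with 1166, 1809 and 1674 and of FTL, the ferritin light chain, with 1095, 1402 and 1438. Of the 15 nuclear protein-coding genes with the highest RPKM, 9 were histone genes, H2BC12, H1-5, H2AC14, H4C6, H1-4, H4C3, H2AC8, H3C11 and H2BC10. Among the others were FTL, PTMA, EEF1A1, TMSB10 and RPS12. Replication-dependent histone messages lack a poly(A) tail, so they are read in total RNA libraries and largely missed by poly(A) selection. In replicate 1 every one of these histone genes was lower than in replicates 2 and 3, and histone genes together held 1.23%, 2.06% and 2.00% of counts. Cytoplasmic ribosomal protein genes held 7.57%, 7.78% and 8.05% of counts, the steadiest of the 4 families summed (the others being histones, mitochondrial messages and mitochondrial ribosomal RNAs).

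PAN3, a subunit of the complex that trims poly(A) tails, was among those 15 genes by CPM. It lies on chromosome 13 (28138506 to 28295335, plus strand), beside FLT3, the receptor tyrosine kinase that is a mark of KMT2A-rearranged leukaemia (chromosome 13, 28003274 to 28100592, minus strand). PAN3 had 2744, 3427 and 2954 CPM and 432, 539 and 465 RPKM, rank 56 by mean RPKM of the 10675 protein-coding genes that were on. FLT3 had 1123, 1225 and 1226 CPM and 286 ± 14.3 RPKM, rank 94. The neighbourhood was looked at after these values were seen. Within 1 Mb of FLT3, by the midpoints of the genes, lie 16 protein-coding genes including FLT3. Of these 10 were on, where 53.9% of all protein-coding genes were. RPL21, a ribosomal protein gene, had 395 ± 58.0 RPKM, GTF3A, a factor for 5S RNA transcription, 88.9 ± 6.08, and POMP, a proteasome assembly factor, 88.3 ± 7.76. The remaining genes that were on had 37.2 RPKM (MTIF3) down to 2.30 (SLC46A3). The homeobox genes CDX2, PDX1 and GSX1 and the vascular receptor FLT1, which lie nearer to FLT3 than RPL21 or POMP, were intermediate and highest in replicate 1. CDX2 had 2.14, 0.221 and 0.189 RPKM, FLT1 1.41, 0.0690 and 0.0481, and PDX1 and GSX1 had 72 and 55 counts in replicate 1 and 0 in replicate 2. Levels within the interval thus differed widely. Copy number was not measured, and its part in these levels was not tested.

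**Figure D2:**
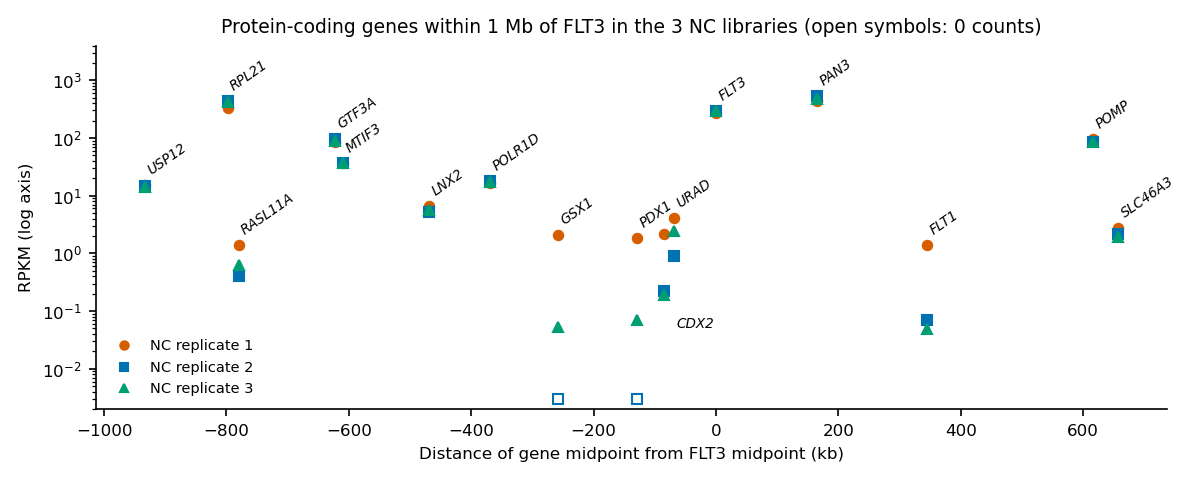
RPKM (vertical log axis) of the 16 protein-coding genes within 1 Mb of FLT3 in each NC library, by the distance in kilobases between the midpoints of each gene and FLT3 (horizontal axis); open symbols mark 0 counts. PAN3, 165 kb away, stands above FLT3 in all 3 libraries, while CDX2, PDX1, GSX1 and FLT1 lie far below both.

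Among non-coding RNAs the 7SL RNA of the signal recognition particle was highest. RN7SL1 (ENSG00000276168.1, chromosome 14, 49586580 to 49586878, plus strand) had 4347, 13626 and 9228 CPM, so that the libraries differed by more than 3-fold and its mean of 9067 ± 4641 CPM (SD, n = 3) is loose. RMRP, the RNA of the nuclease that processes ribosomal RNA precursors (chromosome 9, 35657754 to 35658017, minus strand), had 1128, 3651 and 2777 CPM. The snoRNA SNORA73B followed the same order, at 81.1, 363 and 327 CPM, and so did the U4 spliceosomal RNAs RNU4-2 (31.2, 99.4 and 79.5 CPM) and RNU4-1 (17.2, 68.0 and 57.3). All 5 were lowest in replicate 1. Both RN7SL1 and RMRP overlap another annotated locus along their whole length, and 7SL has near-identical copies, so these counts are uncertain. MALAT1, a nuclear-retained long RNA, had 3458, 6486 and 4010 CPM. The snoRNA host genes were steadier: GAS5 had 335, 349 and 337 CPM, SNHG6 had 217 ± 2.47 (SD, n = 3), and SNHG29 had 441, 614 and 612. NORAD, an RNA that binds PUMILIO proteins, had 287, 315 and 303 CPM. Of the 45 members of a list of long non-coding and structured RNAs, 25 were on (55.6%), 7 intermediate and 13 silent. Over all long non-coding genes 7.25% were on, and over all short structured RNA genes 1.16%. The list was chosen with earlier results of these data known, so its share is a description. The hosts of microRNAs MIR181A1HG (7.24 ± 0.987 RPKM), MIR155HG (4.91 ± 1.32) and MIR17HG (4.65 ± 1.64) were on, as was PVT1 (4.36 ± 1.08). The imprinted RNA H19 and the developmental RNAs FENDRR, HOTAIRM1 and HOTTIP were silent. RN7SK, RN7SL2, RPPH1, SCARNA2 and RNU12 were listed at 0 counts in all 3 libraries. These are RNAs that every cell uses, and a listed 0 is no sign that these cells lacked them. Without replicate 1, 29 of the 45 were on.

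All 15 protein and ribosomal RNA genes of the mitochondrial genome were on. Their median level was 3113 RPKM, above the 1725 RPKM of H2BC12. The messages MT-CO1 (6532, 6897 and 3765 CPM) and MT-ND1 (5229, 6338 and 3040), subunits of respiratory complexes IV and I, were lowest in replicate 3. The ribosomal RNAs went another way: MT-RNR2 had 2425, 9882 and 9393 CPM and MT-RNR1 had 776, 2835 and 4129, lowest in replicate 1. The mitochondrial messages together held 4.55%, 4.43% and 2.36% of counts and the ribosomal RNAs 0.340%, 1.21% and 1.34%, so no single order of the libraries held for the mitochondrial genome.

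The fusion partners were both on. KMT2A (ENSG00000118058.24, chromosome 11, 118436464 to 118526832, plus strand) had 157, 140 and 215 CPM and 5.45 ± 1.26 RPKM (SD, n = 3). AFF1 (ENSG00000172493.23, chromosome 4, 86935002 to 87141054, plus strand) had 182, 209 and 253 CPM and 17.0, 19.5 and 23.6 RPKM. Both were highest in replicate 3. A gene count pools the normal allele, the fusion transcript and any circular RNA, and it does not show which of these was present. Per length AFF1 stood above KMT2A in each library, whose values were 5.01, 4.47 and 6.88 RPKM.

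Targets and partners of the fusion were on in 29 of 32 cases (53.9% over all protein-coding genes), with a median of 13.7 RPKM over the 32 against 1.04 over all protein-coding genes. The list is a set of genes named in the literature on this fusion, which includes work on SEM cells themselves. Like all gene lists used here, it was chosen with earlier results of these data known. Its share on is therefore a description and no independent support. Among the partners, the chromatin reader PSIP1 had 56.4 ± 2.50 RPKM, the elongation kinase CDK9 23.7 ± 3.57, the adaptor MLLT1 12.7 ± 2.97, the histone methyltransferase DOT1L 11.4 ± 2.02, AFF4 9.41 ± 0.547, and menin, MEN1, 8.99 ± 0.108 (SD, n = 3 each). MLLT3, which belongs to the same complexes as MLLT1, had 0.785, 0.235 and 0.393 RPKM and was barely on. Among the targets, the cell-cycle kinase CDK6 had 112, 116 and 143 RPKM, MYC 121, 155 and 142, the lectin LGALS1 139, 142 and 162, and the stem-cell surface protein PROM1 (CD133) 69.7, 87.8 and 87.1. The HOX cofactors were split: MEIS1 had 17.8, 20.7 and 18.3 RPKM, PBX3 15.2 ± 1.02 and MEIS2 1.36 ± 0.132, whereas MEIS3 was silent with 55, 3 and 2 counts. IGF2BP2, an RNA-binding protein, was detected in replicate 1 alone, at 1.12 RPKM.

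HOX genes, the homeobox factors that set position along the body axis, were on mainly in the HOXA cluster. Of 39 HOX genes, 8 were on, 8 intermediate and 23 silent, which is 20.5% on against 53.9% of all protein-coding genes, and 6 of the 8 lie in HOXA. HOXA7 (chromosome 7, 27153716 to 27157936, minus strand) had 29.2, 30.6 and 36.9 RPKM, HOXA9 (27162435 to 27175180) had 24.8, 25.3 and 22.1, and HOXA10 (27170591 to 27180261) had 11.8, 12.6 and 12.5. HOXA5 and HOXA6 followed at 4.37 ± 0.622 and 4.16 ± 1.25 RPKM and HOXA3 at 1.97 ± 0.104 (SD, n = 3 each). The rest of the cluster was lower. HOXA2 and HOXA4 were intermediate, with means of 0.303 and 0.391 RPKM, and HOXA11 and HOXA13, at the far end of the cluster, were silent. The summed level of the cluster was 213, 223 and 226 CPM, among the steadier sums in these libraries. Outside HOXA only HOXC4 (4.02 ± 0.0883 RPKM) and HOXB7 (2.49 ± 0.356) were on, and no HOXD gene was. HOXB, HOXC and HOXD summed to 18.8, 23.4 and 9.06 CPM in replicate 1 and to 3.56, 11.5 and 0.477 in replicate 2, and the part of the higher background of replicate 1 in these sums was not tested. Without replicate 1, 8 HOX genes were on and 28 silent. HOXA7, HOXA9 and HOXA10 share 62.5%, 27.0% and 26.3% of their exon bases with overlapping loci, and counts of overlapping genes cannot be separated here.

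**Figure D3:**
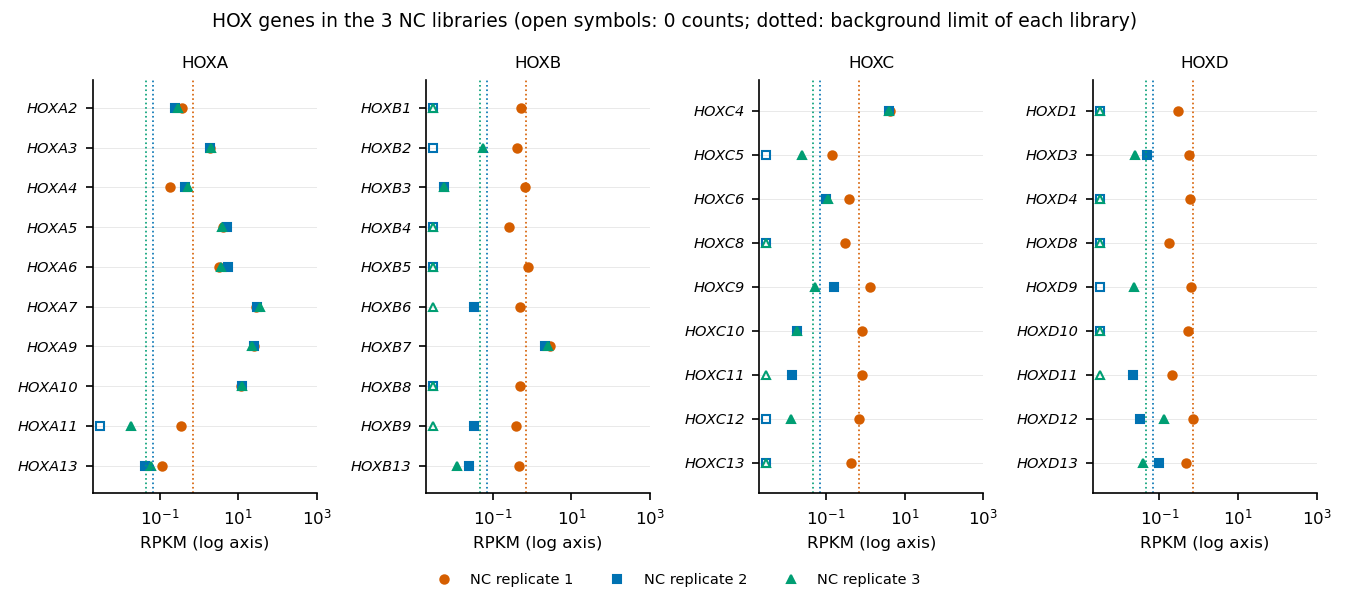
RPKM (horizontal log axis) of HOX genes in each NC library, in 4 panels by cluster and in numerical order; open symbols mark 0 counts and dotted lines the background limit of each library. HOXA3, HOXA5, HOXA6, HOXA7, HOXA9, HOXA10, HOXC4 and HOXB7 lie right of all 3 limits, and for most other genes replicate 1 lies higher than replicates 2 and 3 but left of its own limit.

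B-lineage transcription factors were on in 23 of 26 cases (53.9% over all protein-coding genes), and none was silent. Their median was 14.2 RPKM over the 26, against 1.04 over all protein-coding genes. This list too was chosen with earlier results of these data known. PAX5, the factor that commits cells to the B lineage (chromosome 9, 36833275 to 37034185, minus strand), had 101, 119 and 133 RPKM, a mean of 117 ± 16.3 (SD, n = 3). MEF2C, a factor high in this leukaemia type, had 98.1, 104 and 104, and LEF1, a nuclear effector of WNT signalling, 83.6, 81.7 and 98.4. TCF3 (E2A) stood at 69.8 ± 11.6 RPKM, EBF1 at 47.7 ± 7.44 and IKZF1 (Ikaros) at 15.9 ± 1.87. SPI1 (PU.1), which serves both myeloid and B cells, had 37.4 ± 7.05 RPKM, and RUNX1 41.7 ± 6.26. Other members were lower. BCL6 had 1.94 ± 0.693 RPKM, SPIB 1.82 ± 0.365, POU2AF1 1.63 ± 0.182 and BACH2 0.511 ± 0.316. XBP1, known for its role in plasma cells, stood at 35.4, 35.6 and 34.0 RPKM. The intermediate genes were TCF4, which was on without replicate 1, FOXO1 and the plasma-cell factor PRDM1. FOXO1, which drives the recombinase genes in B-cell precursors, had 15, 13 and 26 counts, a mean of 0.141 RPKM.

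Of 18 genes of the pre-B-cell receptor and its signalling, 12 were on, 5 intermediate and 1, the pseudoautosomal CRLF2, at 0. The share on, 66.7%, is near the 53.9% over all protein-coding genes, and the members differed widely. The signal-transducing chain CD79A had 106, 86.4 and 87.8 RPKM, whereas its partner CD79B had 2.98, 2.04 and 2.93. The surrogate light chain genes IGLL1 (34.7, 25.1 and 32.6 RPKM) and VPREB1 (13.5, 15.3 and 18.9) were on, and VPREB3 was intermediate. The kinases BTK (29.7 ± 2.62 RPKM), SYK (22.0 ± 1.18), LYN (19.5 ± 1.61) and BLK (9.47 ± 0.577) were on, as was the interleukin-7 receptor IL7R (16.2 ± 2.81). BLNK, the adaptor that links SYK to its targets, had 68, 5 and 7 counts, and was detected in replicate 1 alone. The recombination genes were low. RAG1 had 63, 13 and 9 counts, RAG2 26, 26 and 36 (on without replicate 1), and DNTT, the polymerase that adds untemplated bases at the joints, 28, 1 and 0.

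Of 21 immunoglobulin and T-cell receptor constant genes, 4 were on and 13 silent. Of protein-coding genes, which are a different kind, 53.9% were on and 29.9% silent. IGHM, the mu chain (chromosome 14, 105851705 to 105856218, minus strand), had 106, 137 and 155 RPKM, and IGHD had 19.6, 17.4 and 13.2. The kappa gene IGKC was close to the limit at 20, 29 and 24 counts, and the lambda genes IGLC2 and IGLC7 were silent while IGLC1 and IGLC3 were listed at 0. The fourth was TRAC, the constant gene of the T-cell receptor alpha chain (ENSG00000277734.8, chromosome 14, 22547506 to 22552154, plus strand), with 1246, 1996 and 1882 counts and 81.5, 88.7 and 83.3 RPKM. The beta chain genes TRBC1 and TRBC2 had 8 and 7 counts in replicate 1 and 0 in both others. TRAC thus differed between libraries by less than PAX5 did, and it was not matched by the beta chain.

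The surface antigens used to type B-cell precursor leukaemia gave 27 genes on, 5 intermediate and 9 silent of 41. These shares, 65.9% on and 22.0% silent, are near the 53.9% and 29.9% over all protein-coding genes. CD74, the invariant chain of HLA class II molecules, had 415, 420 and 441 RPKM. CD22, an inhibitory receptor of B cells and the target of inotuzumab, had 12.1, 15.4 and 12.9 RPKM. The transferrin receptor TFRC stood at 42.7 ± 5.04 RPKM, the integrin chain ITGA4 at 31.0 ± 1.71 and CD44 at 22.2 ± 2.27 (SD, n = 3 each). CSPG4 (NG2), a proteoglycan that is a diagnostic mark of KMT2A rearrangement, had 15.3, 17.7 and 12.2 RPKM, and LAMP5, a lysosomal membrane protein, had 26.8, 46.2 and 46.4. CD38 was barely on, at 1.01, 0.424 and 0.315 RPKM. MME, which encodes CD10 (chromosome 3, 155024124 to 155183729, plus strand), had 42, 1 and 0 counts and was silent. MS4A1 (CD20) had 17, 6 and 4 counts, CD34 had 52, 0 and 3, and KIT had 51, 1 and 2; all 3 genes were silent. CD24 was intermediate with 33, 14 and 4 counts, though its coding sequence has near-identical copies elsewhere. CD9, a tetraspanin, was on at 37.9, 8.07 and 4.45 CPM and is treated with the variable genes.

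**Figure D4:**
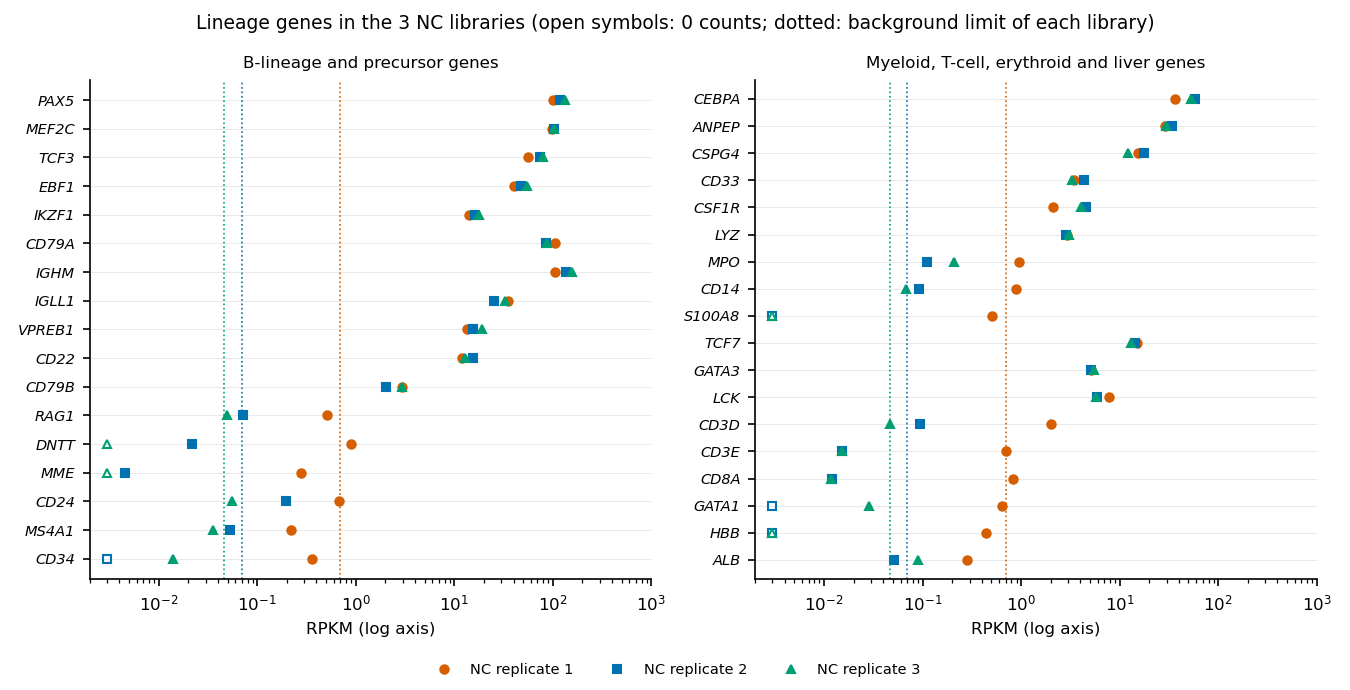
RPKM (horizontal log axis) of named lineage genes in each NC library, with B-lineage genes on the left and myeloid, T-cell, erythroid and liver genes on the right; open symbols mark 0 counts and dotted lines the background limit of each library. Genes that were on cluster tightly to the right of all limits, whereas MME, MS4A1, CD34, S100A8, GATA1 and HBB lie left of the limit in all 3 libraries.

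Defining markers of the B lineage, the lineage of the label, and of other lineages were also counted. They were chosen with earlier results of these data known, so their calls are a description and no independent support. Of 10 B-lineage markers 8 were on (53.9% over all protein-coding genes) and none was silent, the exceptions being RAG1 and DNTT. The 10 summed to 1611, 1894 and 2024 CPM. The 8 markers of T and NK cells (2 on) summed to 46.8, 28.4 and 27.5 CPM and the 9 myeloid markers (2 on) to 35.3, 30.0 and 28.1. The 8 genes listed as non-haematopoietic markers (2 on), PECAM1 among them, summed to 77.9, 47.4 and 30.7 CPM. The 8 erythroid and megakaryocyte markers summed to 6.96, 0.737 and 0.605 CPM, with HBA1, HBA2 and PF4 at 0 in every library, but the kit depletes globin transcripts and the globin genes have near-identical copies. The 6 markers of mature B and plasma cells summed to 18.9, 1.43 and 1.12 CPM and the 4 stem-cell markers to 16.0, 0.564 and 0.820. None of the erythroid and megakaryocyte, mature B and plasma-cell or stem-cell markers was on. The sets differ in size and in gene length, so their sums are not directly comparable. In all but the B lineage, replicate 1 had the highest sum. In bulk RNA, fewer cells of a type and less RNA per cell cannot be told apart, and the part of the background of replicate 1 in these sums was not tested.

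Some myeloid genes were on beside the B-lineage programme. Of 28 myeloid genes, 6 were on, 13 intermediate and 9 silent, a lower share on (21.4%) than the 53.9% over all protein-coding genes and a share silent near the 29.9% over all. CEBPA, the factor that starts granulocyte and monocyte differentiation (chromosome 19, 33299934 to 33302564, minus strand), had 36.4, 57.9 and 52.7 RPKM, and ANPEP, which encodes the myeloid antigen CD13, had 30.7 ± 2.64 (SD, n = 3). Of the exon bases of CEBPA, 43.4% are shared with overlapping loci. VCAN (7.77 ± 0.648 RPKM), CEBPB (6.59 ± 2.04), the macrophage receptor CSF1R (3.58 ± 1.30) and LYZ, lysozyme (2.94 ± 0.133), were also on. From the surface list, CD33 had 3.42, 4.33 and 3.32 RPKM. Other genes of granules and monocytes were not on. MPO had 53, 9 and 17 counts, CD14 26, 4 and 3, ELANE 16, 0 and 1, and S100A8 and S100A9 had 8 counts each in replicate 1 and 0 elsewhere.

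T-cell and NK-cell genes split in the same way, with 6 on, 12 intermediate and 8 silent of 26. The share on was 23.1%, against 53.9% over all protein-coding genes, and the share silent was near the 29.9% over all. TCF7 (14.1 ± 1.12 RPKM), the kinases ZAP70 (10.3 ± 1.49) and LCK (6.48 ± 1.07), the granule protein NKG7 (8.47 ± 0.315) and GATA3 (5.24 ± 0.212) were on at close values in the 3 libraries. NCAM1 (CD56) was on by a small margin at 0.867, 0.140 and 0.0881 RPKM. The CD3 genes were not: CD3D, CD3E and CD3G had 29, 31 and 42 counts in replicate 1, and at most 3 in replicates 2 and 3. All 12 intermediate genes of this list, CD3D, CD3E, CD3G, CD4, CD8A and CD8B among them, were detected in replicate 1 alone, and without replicate 1 the list had 6 on and 20 silent.

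Over all protein-coding genes 53.9% were on and 29.9% silent. Stem and progenitor genes were on in 7 of 20 cases, CDK6, LMO2 (19.5 ± 2.42 RPKM), LYL1 (14.0 ± 0.669), PROCR, ANGPT1, HOPX and MLLT3. TAL1, MECOM and BAALC were silent, each with 1 count in replicates 2 and 3. Of 20 erythroid and megakaryocyte genes only GP9, a platelet glycoprotein, was on, at 3.09, 4.10 and 3.55 RPKM. Mature B-cell and plasma-cell genes were on in 7 of 20 cases, led by XBP1, BANK1 (18.9, 18.8 and 19.3 RPKM) and TNFRSF13C, the BAFF receptor (16.9 ± 4.31), while CR2 and CCR6 were silent. Of 30 genes listed as markers of other tissues 4 were on: PDGFRB (11.7 ± 2.29 RPKM), PECAM1 (5.05 ± 1.45), MBP (2.72 ± 0.613) and COL1A1 (1.14, 0.322 and 0.378). Whether these 4 genes are confined to such tissues was not tested. Without replicate 1 the lists of this paragraph had 7, 1, 7 and 4 members on and 11, 17, 12 and 25 silent. By the rule for the calls, leaving out a library can hardly lower either count. The unchanged counts on are therefore no check of that library.

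Genes that are often lost or mutated in B-cell leukaemia were on in 30 of 32 cases (53.9% over all protein-coding genes). CDKN2A, whose p16 and ARF products restrain the cell cycle (ENSG00000147889.18, chromosome 9, 21967753 to 21995301, minus strand), had 4298, 6094 and 6806 counts and 63.4, 61.0 and 67.9 RPKM, rank 509 of 10675. With the length of its longest transcript in place of all its exons the mean was 216 RPKM, so its level per length depends on that choice. Its neighbour CDKN2B had 44, 17 and 19 counts. The locus is deleted in many B-cell leukaemias, and these counts show transcripts of CDKN2A without telling p16 from ARF. EZH2 had 41.2 ± 1.14 RPKM, PTPN11 45.3 ± 4.16, NRAS 34.3 ± 2.24 and RB1 26.9 ± 0.929. The large chromatin genes KMT2D (11.5, 12.1 and 19.9 RPKM), CREBBP (12.9, 14.7 and 20.1) and EP300 (16.4, 17.7 and 24.7) were each highest in replicate 3, as KMT2A and AFF1 were. TERT, the catalytic subunit of telomerase, was on at 6.03 ± 0.326 RPKM.

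Cell-cycle genes were on in 26 of 28 cases (53.9% over all protein-coding genes), with a median of 44.7 RPKM over the 28 against 1.04 over all protein-coding genes. PCNA had 179 ± 13.5 RPKM, the helicase subunit MCM7 158 ± 31.4, TOP2A 98.5 ± 4.82 and MKI67 64.0 ± 13.9 (SD, n = 3 each). Of the D-type cyclins only CCND3 was on, at 24.9 ± 4.87 RPKM. CCND2 had 66, 2 and 2 counts and was silent, and CCND1 had 70, 10 and 11 and was intermediate. CDK6 was higher per length than CDK4 in each library, 112 against 37.6, 116 against 45.8 and 143 against 38.8 RPKM.

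Apoptosis regulators were on in 19 of 25 cases (53.9% over all protein-coding genes). Of the survival proteins, MCL1 had 43.4, 44.1 and 43.2 RPKM, BCL2 27.8 ± 1.82 (SD, n = 3) and BCL2L1 (BCL-XL) 7.93, 9.20 and 6.51, while BCL2A1 was silent. For BCL2L1, 43.0% of the exon bases overlap another locus. Of the BH3-only genes that oppose them, PMAIP1 (25.8 ± 4.41 RPKM), BMF (24.8 ± 3.72), BID (22.4 ± 3.77) and BCL2L11 (BIM, 11.8 ± 1.81) were on and HRK was silent. The death receptor FAS had 141, 17 and 12 counts and was intermediate. Drug response genes were on in 24 of 28 cases, against the same 53.9%. The glucocorticoid receptor NR3C1 had 16.1 ± 0.561 RPKM, the thymidylate synthase TYMS 143 ± 16.6 (46.6% of its exon bases are shared with an overlapping gene), and DCK, which activates cytarabine, 25.7 ± 1.83. ASNS, the asparagine synthetase that bears on asparaginase treatment, was intermediate with 47, 50 and 46 counts and 0.535 ± 0.121 RPKM. Its call rests on the limits used: it was on without replicate 1, with a 90th percentile limit, with CPM alone and with the longest transcript as length. The efflux pumps ABCB1 and ABCG2 and the cytidine deaminase CDA were intermediate as well.

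HLA and antigen presentation genes were on in 21 of 23 cases (53.9% over all protein-coding genes). Class I genes HLA-B and HLA-C had 115 ± 9.44 and 104 ± 8.65 RPKM, and B2M, their light chain, 101 ± 4.86. Among class II genes HLA-DRA had 116 ± 7.08 RPKM and HLA-DRB1 53.0 ± 4.80, whereas HLA-DQB1 had 4.06 ± 0.405 and HLA-DQA1 0.352 ± 0.318. HLA genes are polymorphic, so reads that differ from the reference allele can be lost, and levels between them are uncertain. Cytokine and chemokine receptors were on in 20 of 31 cases, a share of 64.5% and near that background, led by FLT3, CXCR4 (24.1 ± 2.36 RPKM), INSR (17.6, 18.8 and 23.5), TGFBR2 (18.5, 22.5 and 16.2) and IL7R, with IL2RA and CCR4 among the silent.

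Because the control cells had taken up an RNA duplex, genes of the interferon and double-stranded RNA response were counted: 22 of 31 were on (71.0%, against 53.9% over all protein-coding genes), with a median of 1.80 RPKM over the 31 against 1.04 over all. No interferon gene was on. IFNB1, IFNA1, IFNG and IFNL1 had 3, 5, 5 and 8 counts in replicate 1 and 0 in both others. IFITM2, which restricts virus entry, was the highest responder gene, at 197, 262 and 294 RPKM, while its near-identical relative IFITM3 had a mean of 5.93; reads shared by such relatives can be lost or misplaced. ISG15 had 15.9, 10.6 and 12.5 RPKM, OAS1 3.57, 1.48 and 1.58, and MX1 1.19, 0.312 and 0.200. For OAS1, MX1, OAS2, IFIT2 and IFIH1 replicate 1 was highest, and no untransfected library was there to set these levels against. Replicate 1 also had the highest background limit, 0.696 RPKM against 0.0703 and 0.0464 in replicates 2 and 3. The part of that background in these levels was not tested. All 14 genes of the RNA interference machinery were on, among them DICER1 (27.5 ± 3.32 RPKM) and the slicer AGO2 (8.92 ± 1.34). All 20 housekeeping genes were on, from EEF1A1 and ACTB down to SDHA, a subunit of succinate dehydrogenase, at 4.23 ± 0.282.

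Over the 10675 protein-coding genes that were on, the coefficient of variation (CV, SD over mean) of CPM had a median of 11.3%, and for 78.7% of them it was under 20%. With replicates 2 and 3 alone the median over the same genes was 6.37%. Over all 3 libraries the median CV was 25.5% for genes of 1 to 10 CPM, 10.3% at 10 to 100, 10.2% at 100 to 1000 and 11.8% above that. With replicates 2 and 3 alone these medians were 11.6%, 6.24%, 4.46% and 3.92%. Between replicates 2 and 3, 15 genes differed by more than 2-fold on log2(CPM + 0.5), against 453 between replicates 1 and 2 and 492 between 1 and 3. Across genes, Pearson's r of these values was 0.993 for replicates 2 and 3 and 0.973 and 0.977 for the pairs with replicate 1; genes within a library are not independent. Of 8910 such genes with a mean of at least 10 CPM, replicate 1 was the highest by over 2-fold for 28 and the lowest for 23.

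The genes that varied most had replicate 1 as the odd library. Among genes with a mean of at least 10 CPM, by the range of log2(CPM + 0.5), CD9 came first (37.9, 8.07 and 4.45 CPM, a range of 2.96), then LRP1, an endocytic receptor (24.3, 3.21 and 2.94 CPM, 2.85), and STOX2 (22.5, 3.08 and 6.48 CPM, 2.68). Others among the 10 were NLGN4X, COL27A1, ANGPT1, KNDC1 and PTPN14, which were also highest in replicate 1, and the histone gene H2AC12, which was lowest there with 31.8, 168 and 134 CPM. Against the background limit of 0.696 RPKM in replicate 1, CD9 stood at 9.10 RPKM there and LRP1 at 1.17. The steadiest genes at 10 CPM or more were FAM104B (15.4 CPM in each library), CAND1, a regulator of cullin ligases (201, 200.4 and 201 CPM), STIL, a centriole protein (68.3, 68.1 and 68.3), and MTIF3, SLC25A1, NSMCE1, NUP58, SEPHS2, CCT5 and RASSF3, which differed by at most 0.01 on the log2 scale. These genes were picked from 8910 for their closeness.

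**Figure D5:**
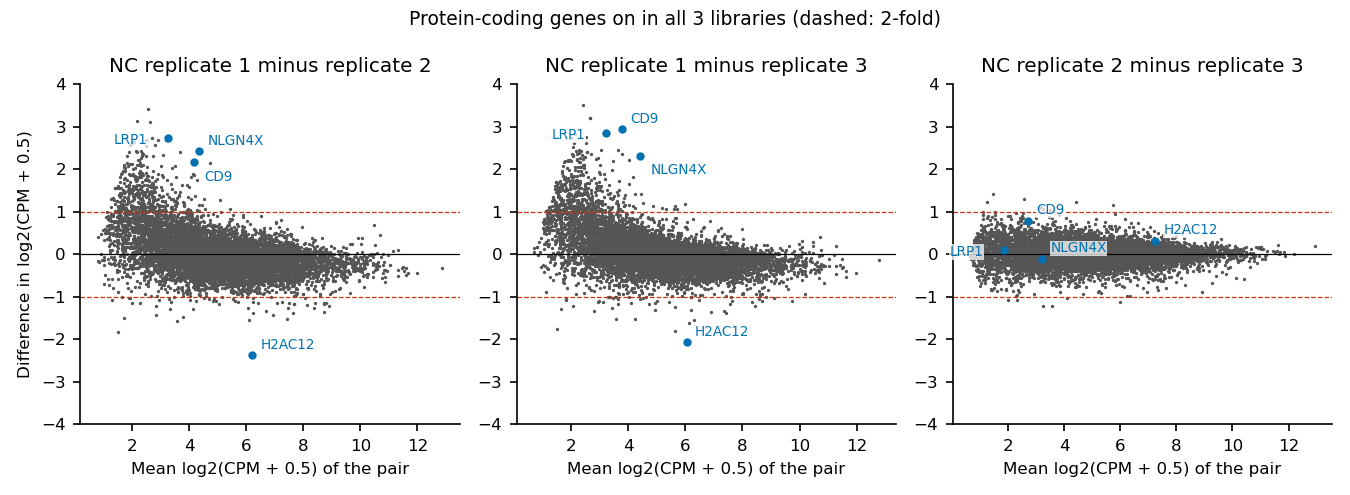
Difference in log2(CPM + 0.5) between 2 NC libraries (vertical axis) against their mean (horizontal axis) for protein-coding genes that were on, in 3 panels by pair, with dashed lines at 2-fold. The cloud is narrow for replicates 2 and 3, where 15 genes pass 2-fold, and widens upward at low levels in both panels with replicate 1; CD9, LRP1, NLGN4X and H2AC12 are marked.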

How the data were processed

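Per the labels' protocols, total RNA libraries were made with a kit that depletes globin transcripts and sequenced on a NextSeq instrument; the labels call the replicates independent. The deposited counts are whole numbers of reads per gene from htseq-count, 1 file per library, with 62703 identifiers and 5 summary lines, which were left out of library sizes. The build was hg38 and the tools HTSeq 0.11.1, STAR 2.7.10a, DESeq2 and FastQC 0.11.8, per the submitters' processing notes. The annotation release, strand setting and any read trimming were not given in the sources used here, so overlapping and antisense genes cannot be told apart.

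From the counts of the 3 NC libraries, CPM values were computed on TMM-scaled sizes (edgeR 4.0.16, R 4.3.3; factors from 15187 genes kept by filterByExpr), and RPKM as CPM per kilobase of union exon length. Gene types, lengths and coordinates come from GENCODE 29 (GRCh38), which held 58264 identifiers and may not be the release counted against. The calls were also run on simulated data, with genes seeded well above the background limit of every library. That simulation does not show how genes near a limit are called. No test was run, since the 3 libraries form 1 group, and the SD measures only the spread between them, which may be technical. The 24 gene lists and the members were chosen with earlier results of these data known. Named genes are KMT2A and AFF1, the 15 highest coding and non-coding genes by CPM and by RPKM, list members, the 10 most and least variable genes, the 5 highest immunoglobulin V genes and the 15 highest factors of set families; exceptions are marked. Genes tied to sex are not named, and some other genes the rule takes in are not reported here, though counted. Alternatives varied the scaling, background limit, minima, gene length and libraries. A planned comparison of promoter CG content was void: RefSeq promoters matched 82.7% of genes that were on but 69.5% of silent ones, under the 80% required.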

Additional observations from a re-analysis of the deposited data

How the results depend on the processing

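Over the alternatives run, 467 of 485 values stayed within 1.5 times (counts), 1 SD (levels) or 5% (median CV) of those reported. These values include all 336 counts of list members on, for which the check is weak. Where most members were on, a rise of 1.5 times was not possible, and leaving out a library could hardly lower a count. The limit is also wide: the 7767 silent protein-coding genes without replicate 1, against 5917, stayed within it. Silent protein-coding genes fell from 5917 to 3400 when CPM alone set the call. Long non-coding genes on fell to 695 at a minimum of 2 CPM, and short structured RNA genes on were 133 at 0.5 CPM and 41 at 2 CPM. The median CV was 10.7% on plain totals, 6.33% to 12.2% when a library was left out, lowest without replicate 1, and 16.6% with TMM factors from all genes, an alternative chosen after seeing the data. With the length of the longest transcript, 6 of the 15 highest genes by RPKM remained, CDKN2A had 216 RPKM in place of 64.1 and EEF1A1 1681 in place of 1255, so levels between genes depend on the length used. Of 603 list members, a 99th percentile limit lost 11 that were on (BACH2, CD38, EYA1, HLA-DQA1, IFIT1, MIAT, MLLT3, NCAM1, PLCG2, POU2F2 and TLR3) and a 2 CPM minimum 10; leaving out replicate 1 added 8 (ASNS, KCNQ1OT1, RAG2, RIGI, RNU5A-1, RNU5B-1, RNU6ATAC and TCF4). No paired analysis was possible because only 1 group was used. Promoter alternatives were not run, since that comparison was void.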

Other observations

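Gene segments of the antigen receptors were read apart from the constant genes. None of 144 immunoglobulin V genes was on, against 53.9% of protein-coding genes, which are a different kind. Together the V genes had 64.2, 3.56 and 4.40 CPM in replicates 1, 2 and 3. The highest were IGHV4-31 (56, 5 and 4 counts), IGHV4-34 (31, 18 and 19), IGHV3-30, IGHV3-35 and IGKV1OR2-108. The IGHM level of 106, 137 and 155 RPKM stood beside no V gene above 1.32 CPM in the mean. Reads that align to several places are not counted in genes, so low counts of V genes with near-identical copies are no sign of absence. Whether IGHM was read with a rearranged V gene was not tested. The 79 T-cell receptor J segments summed to 27.6, 19.7 and 31.7 CPM. This was more than the V segments of that receptor in replicates 2 and 3 (6.11 and 5.10 CPM) but less than in replicate 1 (37.6 CPM).

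Cancer-testis and germline genes were silent in 17 of 21 cases (29.9% of all protein-coding genes were). The exception was LIN28B (chromosome 6, 104936616 to 105083332, plus strand), a fetal RNA-binding protein that blocks let-7 maturation, with 343, 468 and 450 counts and 3.65, 3.38 and 3.24 RPKM. Its paralog LIN28A had 27, 0 and 0 counts. PRAME, TEX14 and POU5F1 were detected in replicate 1 alone.

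Among transcription factors of the homeobox, GATA, KLF, SOX, FOX, ETS, IKZF, RUNX, MEF2 and IRF families outside the lists, the highest were ELF1 (78.8 ± 2.59 RPKM), ETS2 (50.4 ± 9.50), ADNP (35.1 ± 3.75), ZHX2 (31.2 ± 4.68) and the chromatin organiser SATB1 (29.2 ± 4.11). SOX11, a factor best known from mantle cell lymphoma and the nervous system, had 23.2, 21.9 and 25.4 RPKM.

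Pseudogenes that were on were led per length by copies of ribosomal protein genes, RPS15P4 at 936 ± 81.4 RPKM, RPS27P3 at 871 ± 300.2 and RPL3P4 at 774 ± 29.8. A read of such a copy can come from its parent gene, and this was not tested.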
